A study of Mus musculus with 5 samples.

Results

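The genes described here are the chemokines and their receptors in Kit+ leukaemia stem cells of an AML1-ETO9a mouse model. They were taken as every row of the authors' normalized count table whose symbol is a numbered Ccl, Cxcl, Ccr or Cxcr gene, or Cx3cl1, Cx3cr1, Xcl1 or Xcr1. This gave 45 genes of 27526, 28 of them ligands and 17 receptors, and Xcl1 had no row. All 5 libraries came from cells that carry the AML1-ETO9a leukaemia, a truncated form of the fusion of the genes AML1 (Runx1) and ETO (Runx1t1). The 2 control libraries, wild-type 1 and wild-type 3, were labelled Plcg1 +/+. The other 3, deleted 2, deleted 4 and deleted 6, were labelled Plcg1 -/- and described as a conditional deletion. Plcg1 encodes phospholipase C-γ1. The driver of the deletion, the age and strain of the mice, and whether each library came from its own mouse are details that the sources used here do not give. The p-values below therefore measure only the spread between these 5 libraries. Apart from deleted 6, which differed in sex by its Xist counts (given below), this spread may be technical.

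Chemokines are small secreted proteins that guide leukocytes by binding receptors with 7 membrane passes. The ligands are sorted by the spacing of their first cysteines into CC, CXC, CX3C and C classes, and most receptors couple to the Gi class of G proteins. In bone marrow the pair Cxcl12 and Cxcr4 holds stem and progenitor cells in place, Ccr2 brings monocytes into the blood, and Cxcr2 does the same for neutrophils. Many ligand genes are activated by the transcription factor NF-κB in myeloid cells.

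Plcg1 itself was not lower under the deleted label, at 22.1 and 34.0 CPM (counts scaled to a common library size with edgeR's TMM factors) in wild-type 1 and 3 and 52.998, 26.9 and 37.1 CPM in deleted 2, 4 and 6. Counts over the whole gene cannot show whether an exon was removed, and the groups are called by their labels throughout. Deleted 6 stood apart from the other libraries. Xist, the RNA that silences an X chromosome in female cells, was at 122 CPM in deleted 6 (5375 counts) and had at most 3 counts in each of the others. The proliferation gene Mki67 was at 7.76 CPM there, against 165 to 272 CPM. The file names place deleted 6 alone in sequencing lane 5 and wild-type 1 alone in lane 3, so lane and library cannot be told apart for either. Deleted 6 had a summed level of 113 CPM for 11 neutrophil and precursor genes, against 14137 to 20114 CPM elsewhere. Its 10 largest genes took 20.4% of its counts, against 4.76% to 8.96%. Kit, the surface receptor named in the labels, was at 3.08 CPM in deleted 6, at 26.8 and 32.1 CPM in the control libraries, and at 672 and 304 CPM in deleted 2 and 4. Libraries held 37306507 to 57133771 gene counts, so that 3 counts were worth 0.0526 to 0.0723 CPM. Each comparison is given with and without deleted 6.

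The chemokine genes lie in a few groups of neighbours, and promoter sequence is shown for 6 of them, chosen for the reasons given beside each set. Coordinates are mm10 (GRCm38). On chromosome 11, Ccl2, Ccl7, Ccl12, Ccl8 and Ccl1 lie between 82035571 and 82305690, and Ccl5, Ccl9, Ccl6, Ccl3 and Ccl4 between 83525778 and 83664683. On chromosome 5, Cxcl5, Cxcl3, Cxcl15, Cxcl1 and Cxcl2 lie between 90759360 and 90905938. RefSeq's promoter table for GRCm38.p6 held 33 promoters of 32 of the 45 genes, and the 250 bases before the start site were searched on both strands. The first 3 sequences are shown because Cxcl1, Cxcl2 and Cxcl3 share a word of 11 bases. This set and the word were chosen after the search. It reads GGGAATTTCCC, holds 2 overlapping matches to the NF-κB consensus, and is in capitals.
Cxcl1 (chr5:90890995-90891244, plus strand): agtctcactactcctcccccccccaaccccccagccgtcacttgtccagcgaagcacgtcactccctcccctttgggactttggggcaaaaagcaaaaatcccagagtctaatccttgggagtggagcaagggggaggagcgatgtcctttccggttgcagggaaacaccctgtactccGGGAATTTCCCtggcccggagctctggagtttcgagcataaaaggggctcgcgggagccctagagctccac
Cxcl2 (chr5:90903649-90903898, plus strand): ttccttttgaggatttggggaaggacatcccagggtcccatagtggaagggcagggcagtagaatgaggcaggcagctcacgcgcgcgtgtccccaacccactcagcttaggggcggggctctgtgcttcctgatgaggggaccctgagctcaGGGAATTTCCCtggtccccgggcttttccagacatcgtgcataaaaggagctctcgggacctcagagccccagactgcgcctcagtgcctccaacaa
Cxcl3 (chr5:90785851-90786100, plus strand): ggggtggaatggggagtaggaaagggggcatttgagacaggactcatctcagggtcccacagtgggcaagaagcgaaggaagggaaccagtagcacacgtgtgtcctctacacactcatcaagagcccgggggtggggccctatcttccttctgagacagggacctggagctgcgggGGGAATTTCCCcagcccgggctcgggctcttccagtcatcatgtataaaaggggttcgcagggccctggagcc

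The word begins 71, 97 and 73 bases before the start site in Cxcl1, Cxcl2 and Cxcl3. It stood in 14 of all 32851 promoter windows of the same length (0.0426%), and in no other chemokine or receptor window. The NF-κB consensus had a match in 8 of the 33 windows (24.2%), against 7.25% of all windows. These were the windows of Ccl1, Ccl9, Ccr1, Ccr3, Cxcl1, Cxcl2, Cxcl3 and Cxcl10. The AP-1 word TGANTCA matched in 4 windows (12.1%, against 6.75% of all), the C/EBP word TTGCNNAA in 0 (against 9.56%), and the PU.1 word GAGGAA in 9 (27.3%, against 23.3%). A match describes these letters and is no measure of binding.

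A second set is shown from chromosome 11. Ccl12 and Ccl8 are neighbours of Ccl2 and shared its highest value in deleted 4, and Ccl6 was the most abundant chemokine gene per kilobase. Capitals mark the PU.1 word on either strand. The Ccl6 window held no match to any of the 4 motifs.
Ccl12 (chr11:82101595-82101844, plus strand): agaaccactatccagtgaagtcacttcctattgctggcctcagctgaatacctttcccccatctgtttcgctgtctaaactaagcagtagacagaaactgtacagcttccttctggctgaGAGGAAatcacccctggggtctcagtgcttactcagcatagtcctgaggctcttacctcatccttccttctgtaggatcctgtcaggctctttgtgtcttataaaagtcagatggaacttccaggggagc
Ccl8 (chr11:82114935-82115184, plus strand): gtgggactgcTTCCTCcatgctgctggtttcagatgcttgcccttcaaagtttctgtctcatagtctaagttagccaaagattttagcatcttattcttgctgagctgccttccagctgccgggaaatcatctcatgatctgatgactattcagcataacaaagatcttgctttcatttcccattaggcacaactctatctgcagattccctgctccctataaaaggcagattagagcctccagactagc
Ccl6 (chr11:83593088-83593337, minus strand): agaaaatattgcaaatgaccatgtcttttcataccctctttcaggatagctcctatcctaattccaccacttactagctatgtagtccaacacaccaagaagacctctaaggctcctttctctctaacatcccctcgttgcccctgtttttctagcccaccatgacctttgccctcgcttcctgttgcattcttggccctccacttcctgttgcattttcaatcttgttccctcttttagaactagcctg

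Of the 45 genes, 33 passed edgeR's filter on low counts, 21 ligands and 12 receptors. The other 12 (Ccl1, Ccl17, Ccl28, Cxcl9, Cxcl11, Cxcl12, Cxcl15, Ccr3, Ccr4, Ccr8, Cxcr3 and Cxcr6) reached at most 0.522 CPM in any library. Cxcl12, the niche ligand, was thus barely counted, at 0 to 0.288 CPM. At least 10 CPM in some library was reached by 21 genes, and those reported are given one by one below. Ccr7 (10.6 CPM at its highest) lay just inside this limit and Ccl25 (9.05 CPM) just outside.

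No chemokine or receptor gene passed the test between the labels across all 5 libraries (edgeR's quasi-likelihood test, adjusted p over 16120 genes under 0.05), as for the whole table, where 0% was called in either direction. The smallest adjusted p among the 33 was 0.227, and at an unadjusted p under 0.05 there were 6 higher and 2 lower, where all tested genes gave 9.44% and 5.42%. DESeq2 called Ccl2, Ccl6, Ccl8 and Ccr7 higher and Ccr2 lower (4 and 1 of 33, against 5.75% and 3.05% of all genes). In limma-voom with sample quality weights, Ccl22, Ccr1 and Cx3cl1 joined these, giving 7 higher and 1 lower, against 7.63% and 5.87%. Without deleted 6, edgeR called 8 of 33 higher, Ccl2, Ccl6, Ccl8, Ccl22, Ccl24, Cx3cl1, Ccr7 and Ccr10, and Ccr2 lower. All 15787 genes of that fit gave 7.89% higher and 5.07% lower. Taken as deleted over wild-type, the median log2 fold change was 1.11 over the 33 genes and 0.01 over all genes, and without deleted 6 it was 0.91 and -0.01.

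For 9 of the 33 genes each deleted library exceeded both controls, where all genes gave 22.4%. Among them were Ccl2, Ccl5, Ccl6, Ccl7, Ccl8, Ccl9, Ccr1 and Ccr7. For 5 genes each deleted library lay below both, Ccr2, Cx3cr1, Cxcl17, Cxcr5 and Xcr1, where all genes gave 23.7%. The highest library was deleted 4 for 10 of the 33 genes and deleted 6 for another 10, while over all tested genes these libraries were the highest for 7.83% and 36.2%.

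**Figure D1:**
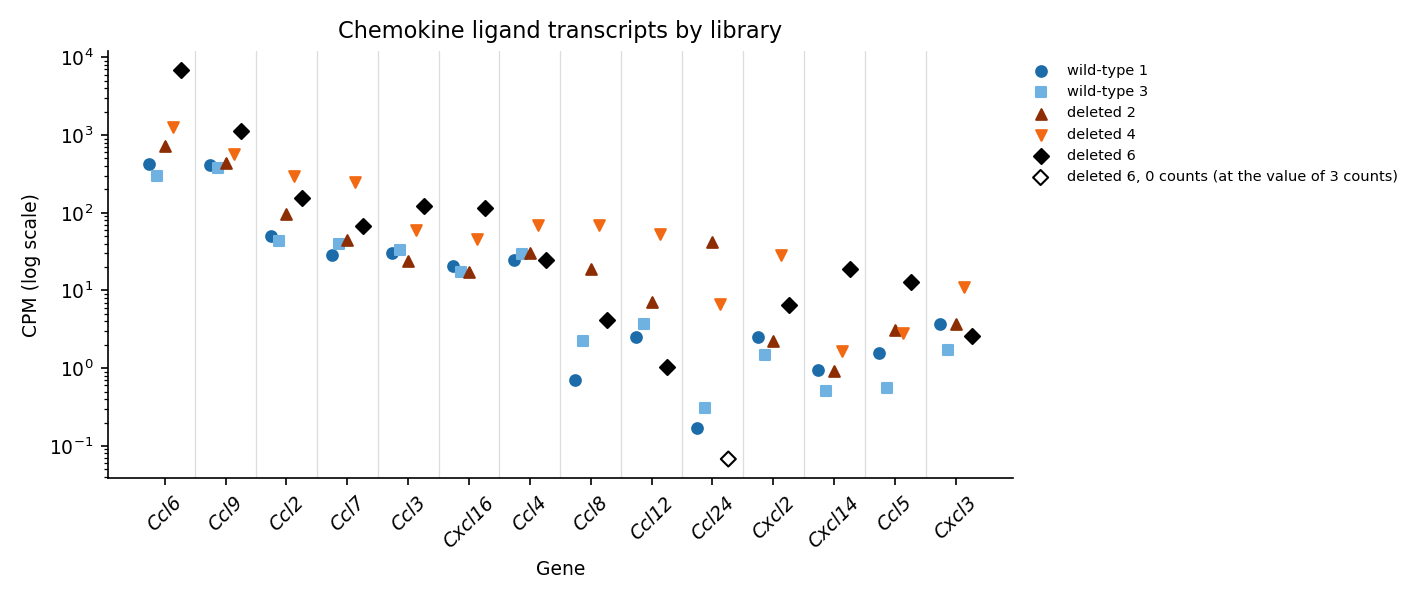
Ligand genes that reached 10 CPM in some library, with CPM on a log axis and 1 point per library. Ccl6 reached 6831 CPM in deleted 6, Ccl2, Ccl7, Ccl8 and Ccl12 were highest in deleted 4, and Ccl24 was highest in deleted 2. The open point marks a count of 0, drawn at the value of 3 counts.

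Ccl6 was the most abundant chemokine transcript per kilobase of merged exons in every library. By CPM it was highest in all libraries but wild-type 3, where Ccl9 was higher. Its product is a CC ligand of macrophages and other myeloid cells that signals through Ccr1. It stood at 430 and 295 CPM in wild-type 1 and wild-type 3 and at 721, 1274 and 6831 CPM in deleted 2, 4 and 6. All deleted libraries lay above both wild-type libraries, and deleted 6 lay far above the other deleted ones. In deleted 6 it was the 11th most abundant gene of the library, with 0.529% of all gene counts, and it made up 80.2% of the summed ligand CPM, against 34.4% to 49.4% in the other libraries. Its log2 fold change came to 3.02 ± 1.15 (SE, with an edgeR adjusted p = 0.325) across all libraries and 1.47 ± 0.31 without deleted 6 (adjusted p = 0.0280), a rise in that fit.

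Ccl9, the next gene on chromosome 11 and a ligand of Ccr1 as well, was second in level per kilobase averaged over the libraries. It stood at 412 and 373 CPM in the controls and at 431, 564 and 1136 CPM in deleted 2, 4 and 6. The groups did not overlap, but deleted 2 lay close to wild-type 1. Its log2 fold change was 0.86 ± 0.48 (adjusted p = 0.436), or 0.35 ± 0.18 with deleted 6 left out (adjusted p = 0.248), so the difference did not pass in either edgeR fit.

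Ccl3, Ccl4 and Ccl5 (MIP-1α, MIP-1β and RANTES), inflammatory CC ligands, are neighbours. Ccl3 and Ccl5 were highest in deleted 6 and Ccl4 in deleted 4. Ccl3 was at 30.3 and 33.7 CPM in the controls and at 24.0, 60.3 and 123 CPM in deleted 2, 4 and 6. Ccl4 was at 24.7 and 29.3 CPM in the controls and at 29.96, 69.6 and 24.6 CPM in deleted 2, 4 and 6. The groups overlapped for both, with Ccl4 low and Ccl3 high in deleted 6. Ccl5 was low throughout, at 1.57 and 0.558 CPM in the controls and 3.07, 2.87 and 12.9 CPM in deleted 2, 4 and 6, without overlap. None of these passed in edgeR, with adjusted p of 0.470, 0.562 and 0.325 across all libraries and 0.560, 0.169 and 0.112 without deleted 6.

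The Ccl2 group, whose products attract monocytes (Ccl2, Ccl7, Ccl12 and Ccl8, or MCP-1, MCP-3, MCP-5 and MCP-2), was highest in deleted 4 for every member but the barely counted Ccl1. Ccl2 stood at 50.9 and 43.8 CPM in the controls and at 96.2, 297 and 156 CPM in deleted 2, 4 and 6. No deleted library overlapped the controls. Means were 47.4 ± 5.02 CPM (SD, n = 2) against 183 ± 103 CPM (SD, n = 3). Its log2 fold change was 1.95 ± 0.53 (edgeR adjusted p = 0.244), or 2.07 ± 0.48 with deleted 6 left out (adjusted p = 0.0372). With all 5 libraries DESeq2 and limma-voom called Ccl2 (adjusted p = 0.0123 and 0.0263), and edgeR did not. With deleted 6 left out, DESeq2 called it (adjusted p = 0.0330) and limma-voom did not (adjusted p = 0.0519).

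Ccl8 had the lowest control level and the largest log2 fold change of these 4 genes. It was at 0.699 and 2.22 CPM in the controls and at 18.7, 69.1 and 4.16 CPM in deleted 2, 4 and 6. The groups did not overlap, with deleted 6 nearest to wild-type. The log2 fold change was 4.38 ± 1.43 (edgeR adjusted p = 0.286), or 4.89 ± 0.78 with deleted 6 left out (adjusted p = 0.0112). Without deleted 4 it was 2.97.

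Ccl7 and Ccl12 showed the same high value in deleted 4 but passed in neither edgeR fit. Ccl7 was at 28.4 and 40.2 CPM in the controls and at 44.7, 246 and 67.0 CPM in deleted 2, 4 and 6. Ccl12 was at 2.53 and 3.75 CPM in the controls and at 7.01, 53.3 and 1.04 CPM in deleted 2, 4 and 6, with deleted 6 below both wild-type libraries. Without deleted 6 their log2 fold changes were 2.09 ± 0.70 (adjusted p = 0.103) and 3.27 ± 0.87 (adjusted p = 0.0565). Without deleted 4 the log2 fold change of Ccl7 was 0.71 and that of Ccl12 was 0.37, against 1.8 and 2.70 with all libraries, so their size rested on that library.

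Ccl24 and Ccl22 were high in deleted 2 and 4 and at or below the wild-type level in deleted 6. Ccl24 (eotaxin-2, a ligand of Ccr3 that attracts eosinophils) had 7 and 17 counts in wild-type, 2410 and 359 in deleted 2 and 4, and 0 in deleted 6. In CPM this was 0.169 and 0.306, then 42.2 and 6.78, and in deleted 6 a count of 0 allows up to 0.0678 CPM. Ccl22, a ligand of Ccr4, was at 0.675 and 0.504 CPM in the controls and at 7.13, 5.72 and 0.497 CPM in deleted 2, 4 and 6. Across all 5 libraries the groups overlapped for both, and the edgeR adjusted p was 0.375 and 0.342. Without deleted 6 they rose by 6.65 ± 1.01 and 3.46 ± 0.35 on the log2 scale (edgeR adjusted p = 0.00943 and 0.00236). Without deleted 2 the log2 fold change of Ccl24 was 3.82, against 6.07 with all libraries.

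Cx3cl1 (fractalkine) lies between Ccl22 and Ccl17 on chromosome 8. Like Ccl22, it was higher in deleted 2 and 4 than in the other libraries, whose order differed between these genes. Ccl17 did not share this, with 1 and 6 counts in the controls and 9, 1 and 5 in deleted 2, 4 and 6. Cx3cl1 was at 0.145 and 0.216 CPM in the controls, 0.876 and 0.831 CPM in deleted 2 and 4, but 0.204 CPM in deleted 6. Without deleted 6 it rose by 2.22 ± 0.52 on the log2 scale (edgeR adjusted p = 0.0380), on 6 to 50 counts per library. Mast cell and basophil markers, as a sum, were also higher in deleted 2 and 4 than in the other libraries. The 10 listed markers summed to 97.1 and 153 CPM in the controls and to 36.8 CPM in deleted 6. In deleted 2 and 4 they summed to 11284 and 5137 CPM. All 10 were called higher by edgeR without deleted 6, against 7.89% of all genes. Their part in the Ccl22, Ccl24 and Cx3cl1 values was not tested. In bulk RNA, fewer cells of a type and less RNA per cell cannot be told apart.

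The neutrophil attractants Cxcl1, Cxcl2 and Cxcl3, ligands of Cxcr2, were each highest in deleted 4. Their promoters carry the shared word shown above, and its part in these values was not tested. Of the other tested genes with an NF-κB match, Cxcl10 was highest in wild-type 3, and Ccl9 and Ccr1 in deleted 6. Ccl8 and Ccl12, without such a match, were highest in deleted 4. Cxcl2 was at 2.53 and 1.48 CPM in the controls and at 2.23, 28.4 and 6.47 CPM in deleted 2, 4 and 6. Cxcl3 was at 3.71 and 1.71 CPM in the controls and at 3.71, 11.2 and 2.62 CPM in deleted 2, 4 and 6. Cxcl1 was at 1.06 and 0.324 CPM in the controls and at 0.280, 2.57 and 2.01 CPM in deleted 2, 4 and 6. The groups overlapped for all 3, and the edgeR adjusted p ranged from 0.369 to 0.580 across all libraries. Reads of 50 bases can be shared between Cxcl2 and Cxcl3: of the distinct words of that length in their transcripts, 5.84% of those of Cxcl2 and 4.29% of those of Cxcl3 also stood in another gene.

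Cxcl16 and Cxcl14 were high in deleted 6. Cxcl16, a membrane-bound ligand of Cxcr6 made by macrophages, was at 20.7 and 17.3 CPM in the controls and at 17.5, 45.5 and 116 CPM in deleted 2, 4 and 6. Cxcl14 was at 0.940 and 0.504 CPM in the controls and at 0.929, 1.64 and 19.2 CPM in deleted 2, 4 and 6. Both groups overlapped. Without deleted 6 the log2 fold changes were 0.74 ± 0.41 and 0.85 ± 0.52 (edgeR adjusted p = 0.303 and 0.344). The gene Zmynd15 overlaps Cxcl16 on the other strand, and the library kit did not mark strand, so reads of the 2 cannot be told apart where they overlap. Annotated spans on the other strand also overlap Ccl6 (E230016K23Rik), Ccl2 (Gm17268), Cxcl10 (Art3), Cxcl17 (4732471J01Rik), Cxcr5 (Bcl9l) and Ccr9 (Lztfl1 among others).

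The interferon-induced ligand Cxcl10 and the gut and thymus ligand Ccl25 did not follow these patterns. Cxcl10 was at 3.13 and 4.65 CPM in the controls and at 1.51, 4.15 and 0.294 CPM in deleted 2, 4 and 6. Ccl25 stayed between 7.50 and 9.05 CPM in every library, with a log2 fold change of 0.02 ± 0.25 (edgeR adjusted p = 0.971). Ccl25 overlaps Elavl1 on the opposite strand. The remaining tested ligands, Cxcl5 and Cxcl17, did not exceed 1.21 CPM.

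**Figure D2:**
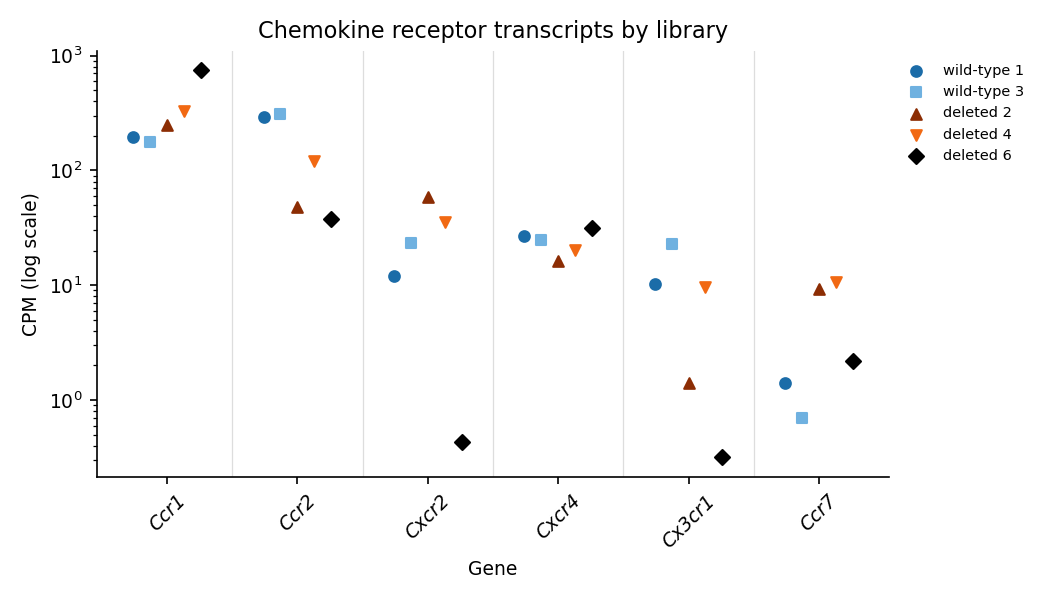
Reported receptor genes that reached 10 CPM in some library, with CPM on a log axis and 1 point per library. Ccr2 was at 295 and 307 CPM in the controls and at 120.9 CPM or less in the deleted libraries, while Ccr1 was above wild-type in all 3.

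Ccr2, the receptor of Ccl2 on inflammatory monocytes, had the smallest p of all chemokine and receptor genes in edgeR with all 5 libraries. In DESeq2, limma-voom and the edgeR fit without deleted 6, other genes of the set had a smaller p. Ccr2 stood at 295 and 307 CPM in the controls and at 47.7, 120.9 and 37.7 CPM in deleted 2, 4 and 6. All deleted libraries lay below both wild-type libraries, with means of 301 ± 9.0 CPM (SD, n = 2) and 68.8 ± 45.4 CPM (SD, n = 3). The log2 fold change was -2.13 ± 0.54 across all libraries (edgeR adjusted p = 0.227), and with single libraries left out it lay between -2.81 and -1.82. Of the words of 50 bases in its transcripts, 1.91% also stood in another gene. Without deleted 6 it fell by 1.82 ± 0.40 on the log2 scale (edgeR adjusted p = 0.0307), and DESeq2 and limma-voom called it lower with all 5 libraries (adjusted p = 0.00966 and 0.0437).

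Of the ligands of Ccr2, Ccl2 and Ccl7 lay above both wild-type libraries in all 3 deleted libraries, where Ccr2 lay below. Ccl12 did not, since in deleted 6, with the lowest Ccr2, it was below both controls. Deleted 4 had the highest Ccl2 and also the highest Ccr2 of the deleted libraries, so within that group the order was not opposite. Ly6c2, a surface marker of the monocytes that carry Ccr2, was at 781 and 832 CPM in the controls and at 131, 247 and 5.45 CPM in deleted 2, 4 and 6. Of 12 monocyte and macrophage markers, every deleted library lay below wild-type in 2 and above in 1, against 23.7% and 22.4% of all genes. Their summed level was 12075 and 11677 CPM in the controls and 9040, 18941 and 73694 CPM in deleted 2, 4 and 6, most of it Lyz2. Without deleted 6, edgeR called Ly6c2 lower and Adgre1 higher among the 12, against 5.07% and 7.89% of all genes. The part of monocytes and macrophages in the Ccr2 values was not tested.

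Ccr1, which binds Ccl3, Ccl5, Ccl6, Ccl7 and Ccl9, was the most abundant receptor per kilobase. It was at 195 and 178 CPM in the controls and at 249, 329 and 748 CPM in deleted 2, 4 and 6. The groups did not overlap, and the libraries stood in the same order as for Ccl9. Its log2 fold change was 1.25 ± 0.53 (edgeR adjusted p = 0.355), or 0.64 ± 0.17 with deleted 6 left out (adjusted p = 0.0585). limma-voom called Ccr1 with all 5 libraries (adjusted p = 0.0484).

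Ccr7, which guides dendritic cells and lymphocytes to lymph nodes, was low in wild-type and higher in every deleted library. It was at 1.40 and 0.703 CPM in the controls and at 9.25, 10.6 and 2.17 CPM in deleted 2, 4 and 6. The log2 fold change was 2.81 ± 0.85 (edgeR adjusted p = 0.276), or 3.27 ± 0.39 with deleted 6 left out (adjusted p = 0.00410). Among the 3 libraries that the file names place in sequencing lane 4 (wild-type 3, deleted 2 and deleted 4), Ccr7 and Ccl22 were the 2 of 35 tested chemokine and receptor genes that passed (edgeR adjusted p = 0.0381 and 0.0418), against 1.26% of all genes called higher there. That test takes the lone wild-type library to vary like the 2 deleted ones. Of the dendritic cell markers, Itgax was at 11.5 and 8.25 CPM in the controls and 120, 97.5 and 756 CPM in deleted 2, 4 and 6, and Zbtb46 was at 0.747 and 0.396 CPM, then 2.93, 2.72 and 10.7 CPM. Both were called higher without deleted 6, 2 of 5 tested markers on that list, against 7.89% of all genes. The median log2 fold change of the list was 0.09 in that fit. Flt3, Clec9a, Siglech and Cd209a did not exceed 3.12 CPM in any library. Xcr1, on the same list, went the other way, at 0.675 and 0.540 CPM in the controls and 0.368, 0.227 and 0.181 CPM in deleted 2, 4 and 6. The part of dendritic cells in the Ccr7 values was not tested. Ccr10, a receptor of skin and mucosal ligands, was at 1.33 and 1.44 CPM in the controls, 3.63 and 3.45 CPM in deleted 2 and 4, but 0.0678 CPM in deleted 6, and was called without deleted 6 (log2 fold change 1.37 ± 0.32, edgeR adjusted p = 0.0371). Cntnap1 overlaps it on the other strand.

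Cxcr2, the neutrophil receptor of Cxcl1, Cxcl2 and Cxcl3, was near 0 in deleted 6. It was at 12.0 and 23.5 CPM in the controls, 58.4 and 35.7 CPM in deleted 2 and 4, but 0.430 CPM in deleted 6. Its partner Cxcr1 was at 0.0723 and 0.270 CPM in the controls and at 0.491, 0.359 and 0 CPM in deleted 2, 4 and 6. The neutrophil list was low in deleted 6 as well, as given above. Without deleted 6, 5 of its 11 genes (Camp, Elane, Ly6g, Ngp and Prtn3) were called lower and 0 higher. Over all genes that fit gave 5.07% lower and 7.89% higher. Cxcr2, in contrast, was above both controls in deleted 2 and 4. The part of neutrophils and their precursors in the Cxcr2 values was not tested. The log2 fold change of Cxcr2 was 0.83 ± 1.58 with all libraries (edgeR adjusted p = 0.794), or 1.41 ± 0.36 with deleted 6 left out (adjusted p = 0.0511). Fits by other tools without deleted 6 were added after the data were seen. There DESeq2 called 12 of the 33 genes higher, Cxcr2 among them, and 1 lower (10.9% and 7.66% of all genes), and limma-voom called 7 higher, again with Cxcr2, and 1 lower (7.53% and 4.99% of all genes).

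Cx3cr1, the fractalkine receptor of patrolling monocytes, lay below wild-type in every deleted library, but with a wide spread. It was at 10.1 and 22.9 CPM in the controls and at 1.40, 9.70 and 0.317 CPM in deleted 2, 4 and 6. The gap between wild-type 1 and deleted 4 was smaller than that between the wild-type libraries. Its log2 fold change was -2.11 ± 1.33 (edgeR adjusted p = 0.477), or -1.56 ± 0.81 with deleted 6 left out (adjusted p = 0.269). The annotated span of Cx3cr1 overlaps other genes on both strands.

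Cxcr4, the receptor that retains stem cells in the marrow, had a narrow range, with the controls inside that of the deleted libraries. It was at 26.8 and 24.8 CPM in the controls and at 16.2, 20.2 and 31.5 CPM in deleted 2, 4 and 6. The groups overlapped, and the log2 fold change was -0.19 ± 0.33 (edgeR adjusted p = 0.773), or -0.49 ± 0.18 with deleted 6 left out (adjusted p = 0.135). The remaining tested receptors, Ccr9, Cxcr1, Cxcr5 and Xcr1, did not exceed 1.10 CPM. Cxcr5 and Xcr1 were the other receptors with every deleted library below wild-type, and neither passed (edgeR adjusted p = 0.302 and 0.347).

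**Figure D3:**
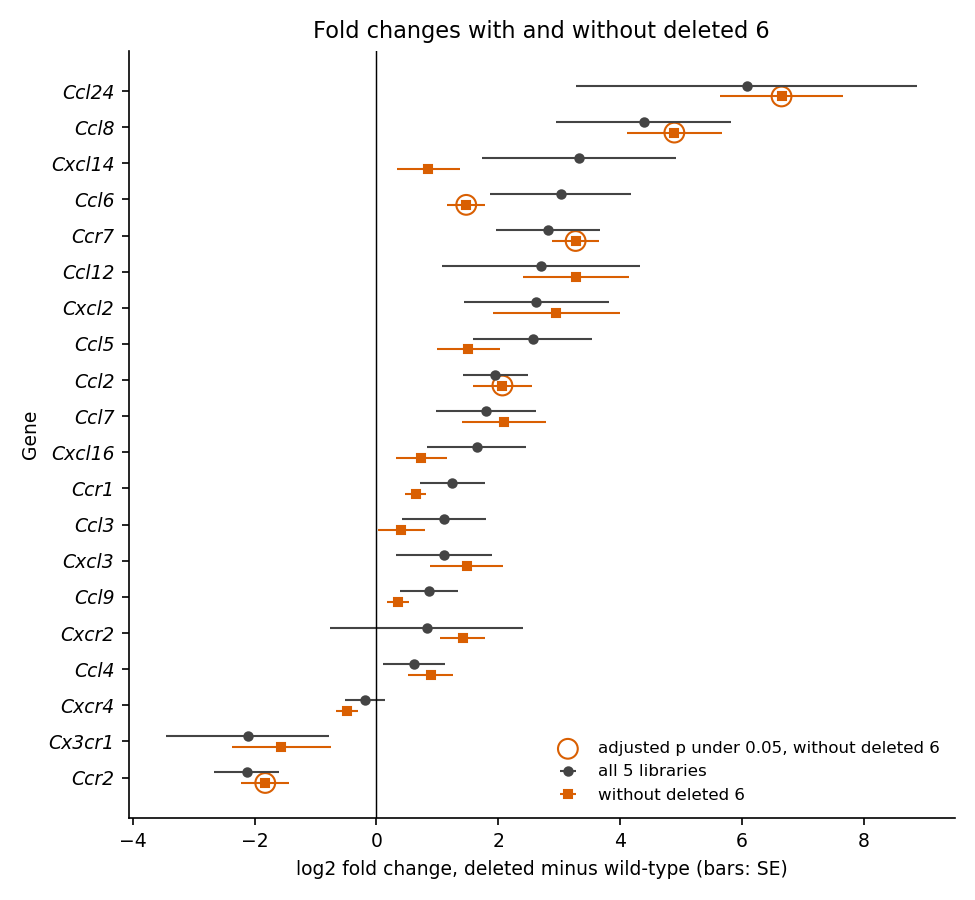
Log2 fold changes, deleted minus wild-type, of reported genes that reached 10 CPM in some library, from edgeR with all 5 libraries (circles) and without deleted 6 (squares), with SE as bars. Ringed squares passed at an adjusted p under 0.05, and Ccr2 is the ringed gene below 0.

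Per kilobase of merged exons and averaged over the 5 libraries, the order of the most abundant genes began with Ccl6 (1064 CPM per kilobase), Ccl9 (192), Ccr1 (120), Ccl2 (113), Ccl7 (106), Ccl3 (70.9) and Ccl4 (54.0). Neighbours in this order were close compared with the range between libraries, which for Ccl2 ran from 38.5 to 261 CPM per kilobase. In the wild-type libraries Ccr2 (43.6 and 45.5 CPM per kilobase) stood beside Ccl2 (44.7 and 38.5), Ccl3 (39.5 and 43.95) and Ccl4 (37.5 and 44.4). In deleted 6 it was at 5.58 CPM per kilobase, against 137 for Ccl2. Receptors with a ligand also counted in the same libraries included Ccr1, Ccr2 and Cxcr2. Bulk RNA does not show whether the same cells made both. The receptors of Ccl24, Ccl22 and Cxcl16 (Ccr3, Ccr4 and Cxcr6) were at most 0.169 CPM in any library.

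Atypical receptors, which take up chemokines without G protein signalling, were listed apart. Of 5 genes, 3 were tested. Ackr1, which binds many CC and CXC ligands, had 0 and 1 counts in wild-type, 1336 and 444 counts in deleted 2 and 4, and 1 count in deleted 6. It was called higher without deleted 6 (edgeR adjusted p = 0.00177), and by DESeq2 with all 5 libraries (adjusted p = 0.000623), and its fold is not given because wild-type was at the detection limit. The mast cell and basophil markers were also high in deleted 2 and 4 and low in deleted 6, and their part in the Ackr1 values was not tested. Ccrl2, a receptor-like protein that holds the attractant chemerin, was at 15.5 and 15.1 CPM in the controls and at 15.2, 19.9 and 68.2 CPM in deleted 2, 4 and 6, and was not called.

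Among 11 platelet chemokines and chemokine-like genes, 10 were tested, and without deleted 6 edgeR called 3 higher (Cd74, Cmtm3 and Pf4) and 1 lower (Cmtm7), where all genes gave 7.89% and 5.07%. Pf4 (Cxcl4), a platelet chemokine that the naming rule leaves out, was at 63.9 and 42.9 CPM in the controls and at 99.0, 283 and 238 CPM in deleted 2, 4 and 6, without overlap (log2 fold change 1.95 ± 0.53, edgeR adjusted p = 0.243, or 1.85 ± 0.47 with deleted 6 left out, adjusted p = 0.0495). The 7 megakaryocyte and platelet markers, Pf4 among them, summed to 75.6 and 62.2 CPM, then 226, 372 and 395 CPM, and Gp1ba, Itga2b and Vwf were also called without deleted 6. Their part in the Pf4 values was not tested. Cd74, the invariant chain of MHC class II and a receptor of the cytokine Mif, was at 92.6 and 107 CPM in the controls and at 527, 712 and 2921 CPM in deleted 2, 4 and 6. Without deleted 6 it rose by 2.65 ± 0.20 on the log2 scale (edgeR adjusted p = 0.00112).

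Genes that carry the signal inside the cell formed another list. Of 25 tested genes downstream of chemokine receptors, such as G protein subunits, PI3 kinase γ and Dock2, edgeR called 0 with every library in the fit (3 up and 1 down at an unadjusted p under 0.05, against 9.44% and 5.42% of all genes). DESeq2 called 2 higher and 0 lower there, against 5.75% and 3.05%. Without deleted 6, 3 were called higher (Gnai1, Jak2 and Ptk2b) and 1 lower (Gng12), against 7.89% and 5.07% of all genes, and the median log2 fold change was 0.00. Ptk2b, a calcium-activated kinase of cell movement, was at 81.5 and 93.7 CPM in the controls and at 132, 152 and 193 CPM in deleted 2, 4 and 6. Gng12, a G protein γ subunit, was at 464 and 342 CPM in the controls and at 232, 246 and 146 CPM in deleted 2, 4 and 6.

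Genes that switch receptors off were listed next. Rgs1, which speeds the shut-off of Gi proteins, was at 7.91 and 9.10 CPM in the controls and at 136, 177 and 370 CPM in deleted 2, 4 and 6. All deleted libraries lay well above wild-type, with a log2 fold change of 4.74 ± 0.58 (edgeR adjusted p = 0.124), or 4.21 ± 0.20 with deleted 6 left out (adjusted p = 0.000378). Of the 14 tested genes, 2 were called higher without deleted 6, Rgs1 and Rgs18, against 7.89% of all genes. Rgs10, another regulator of this family, was at 14.2 and 13.7 CPM in the controls and 20.3, 23.3 and 26.8 CPM in deleted 2, 4 and 6 (edgeR adjusted p = 0.268, or 0.0576 with deleted 6 left out). DESeq2 and limma-voom called Rgs10 with all 5 libraries (adjusted p = 0.0308 and 0.0292).

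Proteases that cut chemokines went both ways. Mmp12, the macrophage elastase, was at 756 and 445 CPM in the controls and at 5822, 7249 and 26802 CPM in deleted 2, 4 and 6. Without deleted 6 it rose by 3.46 ± 0.31 on the log2 scale (edgeR adjusted p = 0.00179). Mmp9, a gelatinase, was at 22.9 and 57.2 CPM in the controls and at 7.76, 9.15 and 8.19 CPM in deleted 2, 4 and 6, and fell by 2.23 ± 0.42 without deleted 6 (adjusted p = 0.0190). Of 11 tested genes, Cma1 and Mmp12 were called higher and Elane, Mmp9 and Prtn3 lower in that fit, against 7.89% and 5.07% of all genes. Cma1 is also on the mast cell list, and Elane and Prtn3 are on the neutrophil list.

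Of 15 tested inducers of chemokine transcription, 1 was called by edgeR without deleted 6, Tnfaip3, against 7.89% of all genes, and 0 with all libraries. Tnfaip3 (A20), a brake on NF-κB that is itself a target of it, was at 19.0 and 26.2 CPM in the controls and at 50.1, 56.6 and 43.8 CPM in deleted 2, 4 and 6 (log2 fold change 1.25 ± 0.20 without deleted 6, adjusted p = 0.0106). Relb, an NF-κB subunit, was at 14.5 and 11.7 CPM in the controls and at 18.5, 24.1 and 29.6 CPM in deleted 2, 4 and 6 (edgeR adjusted p = 0.286, or 0.0821 with deleted 6 left out), and limma-voom called it with all 5 libraries (adjusted p = 0.0405). Tnf was at 15.1 and 13.6 CPM in the controls and 14.2, 29.4 and 14.2 CPM in deleted 2, 4 and 6, with its highest value in the library that was highest for Ccl2 and Cxcl2. Tnf was singled out after its values were seen. Ifng had no count in any library.

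**Figure D4:**
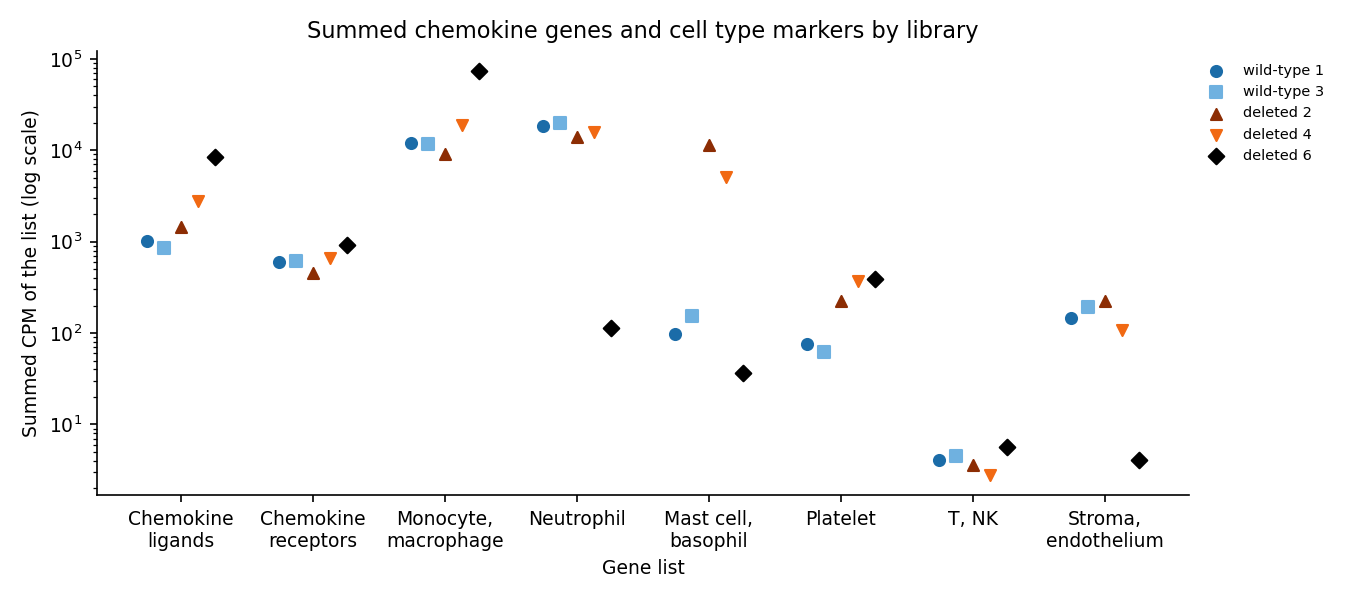
Summed CPM of the ligands, the receptors and 6 cell type marker lists, on a log axis with 1 point per library. Ligands summed to 1024 and 857 CPM in the controls and to 1460, 2753 and 8514 CPM in deleted 2, 4 and 6.

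Summed over the 28 ligands, the level was 1024 and 857 CPM in the controls and 1460, 2753 and 8514 CPM in deleted 2, 4 and 6. Without Ccl6 the same sums were 594 and 563 CPM, then 739, 1479 and 1683 CPM, so each deleted library still exceeded both controls. The 17 receptors summed to 594 and 612 CPM in the controls and to 449, 658 and 911 CPM, with overlap. Of the T and NK cell markers, Cd3e, Cd3g and Ncr1 were at 0 counts in every library, the list summing to 2.79 to 5.65 CPM, most of it Lck. B cell markers summed to 16.2 and 21.4 CPM in the controls and to 4.10, 7.04 and 0.158 CPM in deleted 2, 4 and 6, and Cd79b was called lower without deleted 6. Stroma and endothelial markers summed to 108 to 224 CPM in the libraries other than deleted 6, mostly Pecam1, and to 4.09 CPM in deleted 6. Col1a1 was at 23.9 CPM in deleted 2 and at most 1.21 CPM elsewhere. The part of such cells in the chemokine values was not tested.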

How the data were processed

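Per the labels' protocols, a SMART-Seq v4 kit made the cDNA and Nextera XT the libraries. Single-end reads had 50 bases, per the series' design text. The tools named are STAR, DESeq2 1.12.4 and bcl2fastq 1.8.4, with mm10, per the submitters' processing notes. The sources used here do not say how reads were assigned to genes, or with which annotation. The authors deposited read counts for 46603 genes in each of 5 libraries, and a normalized signal table, in which each library's counts are divided by a size factor of its own. This table defined the genes described and their symbols, and tests used the counts. The 5 rows of each count table that name no gene stayed out, among them reads aligned to several places (13.0% to 15.1%). No 2 libraries were copies, by a chi-square of 44.7 or more per gene.

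Genes were filtered with filterByExpr, scaled with TMM and tested with edgeR 4.0.16 (glmQLFit and glmQLFTest, R 4.3.3) across all genes, with Benjamini-Hochberg adjustment and a threshold of 0.05. The SE was taken as the absolute log2 fold change divided by √F. DESeq2 1.42.0, limma 3.58.1, other scalings and filters, lane 4 alone and fits leaving out each library were alternatives. The fits were tested on simulated data. Limits from a count of 3 cover counting error only. The members, lists and tests were chosen with earlier results of these data known. Genes were named if they reached 10 CPM in a library, with the 2 smallest p of each pathway list and ligand or receptor partners. Ccl22, Ccr10, Cxcl10 and Ccl25 were described outside this rule, and Ccl22 and Ccr10 were among the genes called without deleted 6. Genomic positions are from GENCODE M21 and promoters from RefSeq. 1 gene that the rule includes is counted in the totals and not reported here.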

Additional observations from a re-analysis of the deposited data

How the results depend on the processing

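With all 5 libraries edgeR called 0 genes under RLE factors, plain library totals or a stricter filter. Plain totals moved the log2 fold change of all genes by a median of -0.20, and Ccl25 then stood at -0.19. With no filter on low counts, 163 genes were higher and 115 lower, with none of the chemokine and receptor genes and with 2 higher and 1 lower of the genes of the 6 pathway lists. DESeq2 called 927 higher and 492 lower of all genes, 4 and 1 among the chemokine and receptor genes, and 11 and 1 in the lists. limma-voom called 1230 and 947, 7 and 1, and 15 and 3. In lane 4 alone the counts were 211 and 131, 2 and 0, and 5 and 2.

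Leaving out each library in turn gave 0 to 1245 genes higher and 0 to 800 lower with edgeR. Among chemokine and receptor genes this gave 0 to 8 higher and 0 to 1 lower, and in the lists 0 to 12 and 0 to 5. The upper ends all came without deleted 6. With that library out, fits added after the data were seen gave 1716 higher and 1209 lower with DESeq2 and 1188 and 788 with limma-voom. Chemokine and receptor genes then had 12 and 7 higher and 1 lower in each. The lists had 16 and 9 with DESeq2, and 11 and 5 with limma-voom.

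Of 539 fold changes of 46 genes under alternatives, 9 changed sign and 59 passed the threshold. With single libraries left out, Ccl25 ran from -0.040 to 0.10, Ccr9 from -0.29 to 1.51 and Cxcr4 from -0.49 to 0.0035. Ccr9 was at -0.12 with limma-voom and -0.69 in lane 4, where Cxcl5 was at 0.14. No paired analysis was possible because the groups share no replicate number. Genes under 1 CPM rest on few counts.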
